A study of Homo sapiens with 24 samples.

Results

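The transforming growth factor beta (TGF-β) genes described here are 9 members chosen by symbol: the ligand genes TGFB1, TGFB2 and INHBA, the receptor genes TGFBR1 and TGFBR2, the signal carriers SMAD2 and SMAD3, the inhibitor SMAD7 and the target TGFBI. Each symbol was matched to 1 of the 58721 genes in the deposited count files, and all 9 were found. RNA-seq counts came from 24 libraries of A549, a widely used cell line that was derived from a human lung adenocarcinoma. In the single knockdowns, cells carried siRNA pools at 25 nM against MYBL2 (siMYBL2, n = 4) or FOXM1 (siFOXM1, n = 4), and both groups shared the scrambled-siRNA libraries of siControl (n = 4). In the double knockdown, both pools were transfected together (siBoth, n = 3) beside a separate scrambled control (siControl_siBoth, n = 3). For the compound, cells were treated for 24 h with 20 μM FDI-6, which has been reported to block the binding of FOXM1 to DNA (FDI-6, n = 3), beside a separate control (control_FDI-6, n = 3), given as DMSO where the study lists its comparisons. The time after transfection and whether the dose of the double knockdown applied to each pool were not given in the sources used here. A549 is 1 line, transfection is transient, and a pooled siRNA can act on transcripts besides its target. The labels and methods name replicates of each condition without saying what a replicate number shares, so p-values measure the spread between these samples.

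TGF-β ligands bind the type II receptor encoded by TGFBR2, which recruits and phosphorylates the type I receptor encoded by TGFBR1. The active type I receptor phosphorylates SMAD2 and SMAD3, which enter the nucleus with SMAD4 and change transcription. SMAD7, itself induced by the signal, blocks the type I receptor, and TGFBI encodes a secreted matrix protein named for its induction by TGF-β. INHBA encodes a subunit of the activins, ligands of the same family that signal through SMAD2 and SMAD3. In lung adenocarcinoma the pathway is known for epithelial-mesenchymal transition, for which A549 is a common model.

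Values are normalised read counts (CPM, each count divided by its library's TMM-scaled total and given per 1e6), scaled over all 24 libraries together. Counts on genes ranged from 23964711 to 30140550 per library in the single knockdowns, from 23065227 to 27659364 in the double knockdown and from 16487394 to 21039750 in the FDI-6 experiment. Pairs that were not aligned made up 1.73% to 3.03% of the libraries of the single-knockdown and FDI-6 experiments. In the double-knockdown experiment they made up 9.09%, 10.93% and 10.05% in siBoth and 7.68%, 7.92% and 7.81% in siControl_siBoth, so this share was higher in every siBoth library, and its part in the siBoth values was not tested. In the single knockdowns, each targeted gene was low in its own knockdown. MYBL2 had 6.39 ± 1.88 CPM (SD, n = 4) in siMYBL2 and 153.7 ± 18.9 CPM (n = 4) in siControl, and FOXM1 had 12.1 ± 1.30 CPM in siFOXM1 and 126 ± 12.98 CPM in siControl. All 7 A549 and epithelial markers were detected in every group. Over the 24 libraries, 6 fibroblast markers summed to 1.35 to 11.4 CPM, 4 endothelial markers to 0 to 5.06 CPM and 6 leukocyte markers to 1.88 to 15.6 CPM, with CD3E at 0 throughout and DCN at 0 in all 12 libraries of the double-knockdown and FDI-6 experiments. The leukocyte sum was nearly all CD14, which had 11.8 ± 2.98 CPM in siMYBL2 against 5.67 ± 1.52 CPM in siControl and 11.3 ± 1.05 CPM in siBoth against 5.34 ± 1.97 CPM in its controls, while PTPRC, CD3E, CD68, LYZ and MS4A1 averaged at most 0.283 CPM in any group. The part of CD14 in the results was not tested.

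A gene passed the test when its adjusted p was under 0.05 by edgeR's quasi-likelihood test with Benjamini-Hochberg adjustment over all genes tested, and all 9 members passed the filter on low counts in each of the 4 comparisons with controls. In the 3 knockdowns, libraries that carry the same number differed from their group means in the same way. A fit with the replicate number as a block is therefore given wherever it changed a member's call. For the further pathway genes it is given as counts, and by name for some of them only. "Rose" and "fell" are used below for genes that passed without the block unless the block is named.

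In A549 cells under siMYBL2, SMAD2 fell and no other member passed: 1 of 9 members passed, against 18.1% of all 16065 genes tested. In bulk RNA, fewer cells of a type and less RNA per cell cannot be told apart. With the replicate block, 6 of 9 passed, against 46.7% of all genes. TGFB2, SMAD2 and TGFBI were then lower, and TGFBR2, SMAD3 and SMAD7 were higher.

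Under siFOXM1, 0 of 9 members passed by edgeR, against 1.37% of the 15892 genes tested (0.277% higher and 1.09% lower), and DESeq2 also called 0. One member, TGFBR1, had an unadjusted p under 0.05. With the block, 5 of 9 passed, against 26.3% of all genes: TGFB1, TGFBR1, TGFBR2 and INHBA were lower, and TGFB2 was higher. The groups overlapped in all 9 members, while 9.33% of all genes had groups that did not overlap.

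Under siBoth, TGFB2, SMAD2 and TGFBI fell, so 3 of 9 members passed, against 12.3% of the 15812 genes tested. The groups did not overlap in 5 of 9 members (35.1% of all genes). With the block, TGFB1, TGFBR1 and INHBA were also lower and SMAD7 was higher, giving 7 of 9 against 34.8% of all genes.

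With FDI-6, INHBA, TGFBR1, TGFBR2 and SMAD3 rose and TGFBI fell. These 5 of 9 members stand against 38.9% of the 15240 genes tested that passed in either direction, so a call was common among all genes. With the block, 5 of 9 passed against 33.8% of all genes. The groups did not overlap in 6 of 9 members, against 51.6% of all genes. INHBA changed 13.5-fold, and the other 4 that passed changed 1.2- to 1.38-fold.

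**Figure D1:**
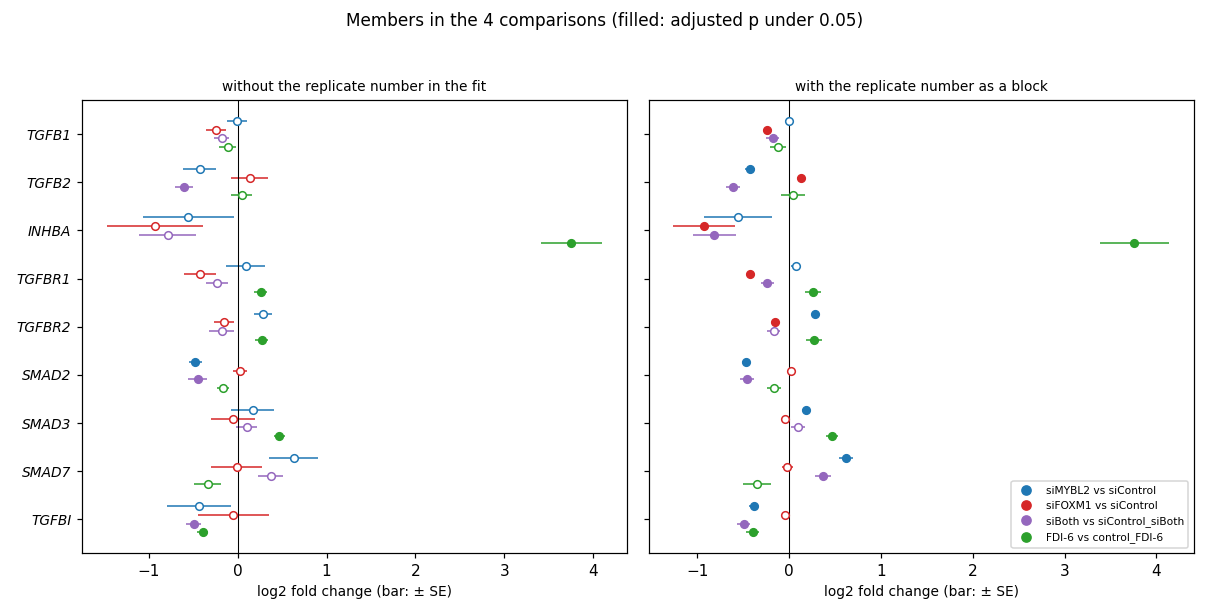
Log2 fold change (x axis) of the 9 members in the 4 comparisons, with bars for ± SE; the left panel is the fit without the replicate number and the right panel the fit with it as a block, and filled points have an adjusted p under 0.05. INHBA with FDI-6 stands apart at 3.76, while the other points lie between -1 and 1 and their bars are shorter with the block in the knockdowns.

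The members covered a wide range of levels. Per kb of the canonical transcript and averaged over the 24 libraries, TGFBI had 427 CPM per kb, TGFBR2 had 102, SMAD3 had 70.5, TGFB1 had 63.5 and TGFBR1 had 18.4. The low end was SMAD7 with 8.80 CPM per kb, TGFB2 with 8.64, SMAD2 with 3.74 and INHBA with 0.533. The order of the levels turned between experiments in part. TGFBR2 was above SMAD3 and TGFB1 in the knockdown experiments but below both in the FDI-6 experiment, with 28.9 CPM per kb in control_FDI-6 and 34.9 in FDI-6. The order of SMAD3 and TGFB1 also turned between experiments, with 58.5 and 80.0 CPM per kb in control_FDI-6 and 96.4 and 61.9 in siControl_siBoth. SMAD7 and TGFB2 had close averages, but their order turned between groups. They had 8.88 ± 1.06 and 12.9 ± 0.977 CPM per kb in siControl_siBoth, and 11.5 ± 1.92 and 8.45 ± 0.793 in siBoth. The canonical SMAD2 transcript has a 3′ UTR of 32870 bases, which lowers its level per kb. Control levels also differed between experiments: TGFBR2 had 560.4 ± 69.6 CPM in siControl (n = 4), 577 ± 109 CPM in siControl_siBoth (n = 3) and 131 ± 5.32 CPM in control_FDI-6 (n = 3). Each treatment was therefore compared with its own control, and the experiment and the control level cannot be told apart.

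**Figure D2:**
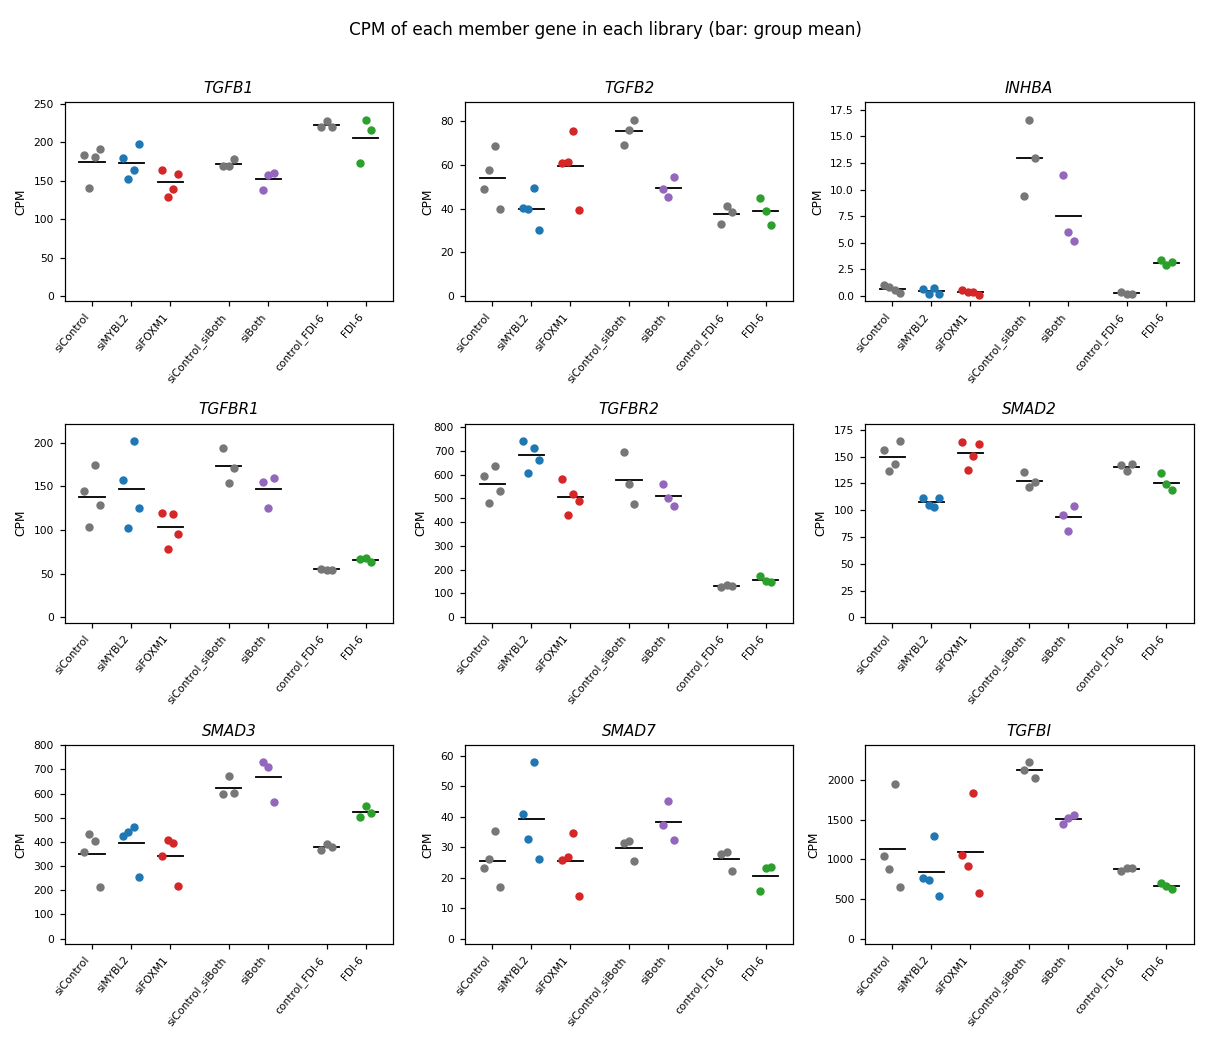
CPM (y axis, from 0, own scale in each panel) of the 9 members in each of the 24 libraries by group (x axis); points are libraries, grey points are controls and bars are group means. SMAD2 is lower in all 4 siMYBL2 libraries than in any siControl library, and INHBA is at 2.91 CPM or above in the FDI-6 libraries and at 0.325 CPM or below in their controls.

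Of the ligands, TGFB1, the most widely expressed TGF-β isoform, had 164, 129, 139.9 and 158 CPM in siFOXM1 and 183, 141, 181 and 192 CPM in siControl. The groups overlapped, but each siFOXM1 library was below the siControl library of its number. Its log2 fold change was -0.24 ± 0.11 (SE, adjusted p = 0.398 by edgeR), and with the block it was -0.24 ± 0.04 (adjusted p = 1.22e-05). Under siMYBL2 the log2 fold change of TGFB1 was -0.01 ± 0.11, with a 95% interval from -0.28 to 0.27. Under siBoth, TGFB1 had 139, 158 and 159.5 CPM, below the 169, 169.3 and 178 CPM of its controls, and its log2 fold change of -0.18 ± 0.08 passed only with the block (adjusted p = 0.195 without it and 0.0487 with it). With FDI-6 it did not pass, at -0.11 ± 0.09 (adjusted p = 0.356). Exons of TGFB1 overlap those of an antisense gene over 6.6% of their length, and the strand setting of the counting is not given in the sources used here.

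TGFB2, the isoform that needs the co-receptor TGFBR3 for tight binding, had 49.0, 45.2 and 54.5 CPM in siBoth and 69.4, 76.3 and 80.8 CPM in its controls. It fell by 0.61 ± 0.10 on the log2 scale (adjusted p = 0.00844 by edgeR), a fold change of 1.52, and passed without any 1 of the 6 libraries. In siMYBL2 it had 40.5, 39.9, 49.4 and 30.04 CPM against 49.0, 57.7, 68.7 and 40.03 CPM in siControl. All 4 siMYBL2 libraries were below the control of their number although the groups overlapped. On the log2 scale the change was -0.43 ± 0.19 (adjusted p = 0.149), -0.42 ± 0.05 with the block (adjusted p = 3.03e-05) and -0.56 without siControl replicate 4 (adjusted p = 0.0475). Under siFOXM1, TGFB2 was 0.13 ± 0.21 (adjusted p = 0.883) and 0.13 ± 0.05 with the block (adjusted p = 0.0376). With FDI-6 the log2 fold change was 0.04 ± 0.12, with an interval from -0.29 to 0.38. Exons of TGFB2 overlap other genes on the same strand over 22.7% and on the other strand over 11.6% of their length, so part of its pairs may have been left out or shared.

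INHBA showed the largest change among the members. It had 3.33, 2.91 and 3.17 CPM in the FDI-6 libraries (55, 50 and 57 counts) and 0.325, 0.145 and 0.215 CPM in their controls (6, 3 and 4 counts). The groups were far apart and both were low, so the fold change rests on few control counts. The log2 fold change was 3.76 ± 0.34 (adjusted p = 1.12e-05), with a 95% interval from 2.80 to 4.71, and it passed without any 1 of the 6 libraries. Under siFOXM1, INHBA had 15, 9, 10 and 2 counts against 24, 21, 15 and 7 in siControl, which is 0.347 ± 0.211 CPM against 0.652 ± 0.306 CPM. Each siFOXM1 library was below the control of its number. The fitted log2 fold change was -0.93 ± 0.54 (adjusted p = 0.538) and -0.92 ± 0.34 with the block (adjusted p = 0.043). INHBA was higher in the double-knockdown experiment, with 11.4, 5.96 and 5.18 CPM in siBoth and 9.40, 16.6 and 12.96 CPM in its controls. These overlapped, and the log2 fold change of -0.79 ± 0.32 did not pass (adjusted p = 0.142). It passed with the block at -0.82 ± 0.23 (adjusted p = 0.0122), although 1 of 3 siBoth libraries was above the control of its number, and also without siBoth replicate 1 at -1.23 (adjusted p = 0.0328) and with no filter (adjusted p = 0.00153). Under siMYBL2 it was -0.56 ± 0.51 (adjusted p = 0.495).

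Among the 12561 genes whose counts averaged 50 or more over the libraries, those whose changes over the 14 treated libraries were most like those of INHBA were ZC3H12C (Pearson r = 0.971), NIBAN1 (0.971) and USP6NL (0.968). The 14 points share their control libraries and fall in 4 treatments, so these are descriptions with no test.

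The window around the start of INHBA is shown because INHBA moved most. It is the RefSeq window of 250 bases before to 50 after the start, at chr7:41703041-41703340 of GRCh38.p14 on the minus strand. Capitals mark TATAAA at -11 and CAGACA, the SMAD binding letters called the CAGA box, at 27 bases after the start.
INHBA: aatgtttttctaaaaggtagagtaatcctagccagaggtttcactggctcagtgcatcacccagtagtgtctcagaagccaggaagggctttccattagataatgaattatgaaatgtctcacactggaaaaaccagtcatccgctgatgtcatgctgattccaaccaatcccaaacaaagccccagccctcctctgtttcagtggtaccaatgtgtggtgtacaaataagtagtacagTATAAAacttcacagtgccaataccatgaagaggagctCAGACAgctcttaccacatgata
CAGACA was present on either strand in 16.9% of 35116 such windows and TATAAA in 11.5%, so either match is common. Searched on both strands as well were TGANTCA (AP-1, in 7.71% of windows), TAAACA (forkhead, 12.3%), TAACNG (MYB, 20.8%) and TTTGAA (CHR, the cell cycle element of MuvB complexes, 15.2%), and none was in the INHBA window. The TGFBI window held none of the 6 motifs. Over all 24 windows of the 9 members, more than 1 for some genes, the MYB letters were in 11 (SMAD2, SMAD3, SMAD7, TGFBR1 and TGFBR2), CAGACA in 5, the CHR letters in 4 (SMAD3, TGFB1 and TGFBR2), TATAAA in 3, the AP-1 letters in 2 and the forkhead letters in 1. The letters describe these windows and were not tested for binding.

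With the block, both receptor genes were lower under siFOXM1, and TGFBR2 was higher under siMYBL2. TGFBR1, the type I receptor kinase, had 120.1, 78.7, 119 and 94.95 CPM in siFOXM1 and 144, 104, 174 and 129 CPM in siControl. Every siFOXM1 library was lower than the siControl library of its number, by 0.27, 0.40, 0.55 and 0.44 on the log2 scale, although the groups overlapped. The log2 fold change was -0.42 ± 0.18 (adjusted p = 0.35 by edgeR) and -0.42 ± 0.04 with the block (adjusted p = 2.96e-09). Under siMYBL2 TGFBR1 was 0.09 ± 0.22 (adjusted p = 0.818), with 2 of 4 libraries above their control. Under siBoth it was -0.23 ± 0.12 (adjusted p = 0.236) and -0.24 ± 0.07 with the block (adjusted p = 0.0153). With FDI-6, TGFBR1 had 66.8, 67.9 and 62.9 CPM, above the 55.8, 54.4 and 54.5 CPM of its controls. It rose by 0.26 ± 0.07 on the log2 scale (adjusted p = 0.0128), a fold change of 1.2. The call was lost without FDI-6 replicate 2 (adjusted p = 0.0575) and without control_FDI-6 replicate 1, 2 or 3 (0.0513, 0.0604 and 0.0554).

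TGFBR2, the type II receptor that binds the ligand first, had 740.4, 607, 713 and 662 CPM in siMYBL2 and 596, 479, 636 and 531 CPM in siControl. All 4 siMYBL2 libraries were above the control of their number, by 0.31, 0.34, 0.17 and 0.32 on the log2 scale. This gave a log2 fold change of 0.28 ± 0.10 (adjusted p = 0.0919) and of 0.29 ± 0.04 with the block (adjusted p = 4.76e-05). In siFOXM1 it had 582, 432, 516 and 490.3 CPM, each below its control, with a log2 fold change of -0.16 ± 0.11 (adjusted p = 0.657) and of -0.16 ± 0.03 with the block (adjusted p = 0.00108). Under siBoth it did not pass, at -0.18 ± 0.14 (adjusted p = 0.432 and 0.0824 with the block). With FDI-6 it had 173, 152 and 149 CPM against 126, 136 and 130.5 CPM and rose by 0.27 ± 0.07 on the log2 scale (adjusted p = 0.012). Without control_FDI-6 replicate 1 or 3 its adjusted p was 0.0742 and 0.05.

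**Figure D3:**
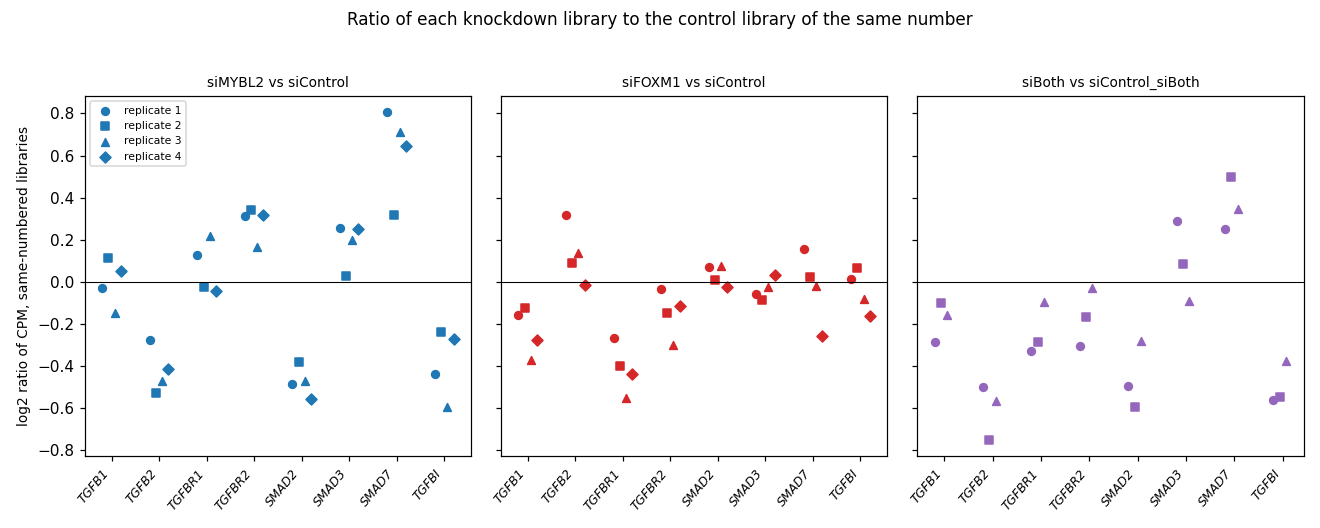
Log2 ratio of CPM (y axis) of each knockdown library to the control library of the same replicate number, for 8 members (x axis; INHBA is left out because of its low counts); marker shapes give the replicate number. TGFBR2 is above 0 in all 4 siMYBL2 pairs and below 0 in all 4 siFOXM1 pairs, and TGFBR1 is below 0 in all 4 siFOXM1 pairs.

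Of the SMADs, SMAD2, which the active receptor phosphorylates, was the member that changed most clearly under siMYBL2. It had 111, 105, 103 and 112 CPM in siMYBL2 and 156, 137, 143 and 165 CPM in siControl. The groups did not overlap, which held for 1 of 9 members and for 23.2% of all genes tested. SMAD2 fell by 0.48 ± 0.07 on the log2 scale (adjusted p = 0.00245), a fold change of 1.39, and passed without any 1 of the 8 libraries. Under siFOXM1 it was 0.03 ± 0.08 (adjusted p = 0.951), with a 95% interval from -0.17 to 0.22. In siBoth it had 95.8, 80.5 and 104 CPM against 135, 122 and 126 CPM and fell by 0.45 ± 0.11 on the log2 scale (adjusted p = 0.0294). That call was lost without siBoth replicate 1 or 2 (adjusted p = 0.0682 and 0.062), without siControl_siBoth replicate 1, 2 or 3 (0.0779, 0.0704 and 0.0856) and with upper-quartile scaling (0.0538), and held with the block (0.000168). With FDI-6 SMAD2 was -0.16 ± 0.07 (adjusted p = 0.0719), and it passed at -0.21 without FDI-6 replicate 1 (adjusted p = 0.00199) and with upper-quartile scaling (adjusted p = 0.0315).

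SMAD3, the partner of SMAD2 that binds DNA directly, had 503, 547.5 and 522 CPM with FDI-6 and 366, 389.6 and 378 CPM in its controls. It rose by 0.47 ± 0.06 on the log2 scale (adjusted p = 0.000114), a fold change of 1.38, and passed without any 1 of the 6 libraries. In the knockdowns it did not pass without the block, at -0.05 ± 0.25 under siFOXM1 (adjusted p = 0.971) and 0.10 ± 0.12 under siBoth (adjusted p = 0.605). In siMYBL2 it had 426, 439.8, 462 and 254 CPM against 357, 432, 404 and 214 CPM. Replicate 4 was the lowest in both groups, and also in siFOXM1, where it had 218 CPM. Its log2 fold change was 0.17 ± 0.24 under siMYBL2 (adjusted p = 0.675) and 0.18 ± 0.04 with the block (adjusted p = 0.00394).

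SMAD7, the inhibitor that the signal itself induces, had 40.8, 32.7, 57.9 and 26.3 CPM in siMYBL2 and 23.4, 26.3, 35.3 and 16.8 CPM in siControl. All 4 siMYBL2 libraries were above the control of their number and the groups overlapped. This gave a log2 fold change of 0.63 ± 0.28 (adjusted p = 0.147) and of 0.62 ± 0.07 with the block (adjusted p = 1.63e-05). In siBoth SMAD7 had 37.3, 45.2 and 32.5 CPM, above the 31.4, 32.01 and 25.6 CPM of its controls, with a log2 fold change of 0.37 ± 0.14 (adjusted p = 0.122) and of 0.37 ± 0.08 with the block (adjusted p = 0.00289). Under siFOXM1 it was -0.01 ± 0.29 (adjusted p = 0.994). With FDI-6 it was -0.34 ± 0.15 (adjusted p = 0.101), -0.45 without FDI-6 replicate 3 (adjusted p = 0.0456) and -0.34 with no filter (adjusted p = 0.0164).

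TGFBI, the matrix protein gene and the most abundant member, had 1444, 1519 and 1556 CPM in siBoth and 2133, 2222 and 2025 CPM in its controls. It fell by 0.50 ± 0.09 on the log2 scale (adjusted p = 0.0111) and passed without any 1 of the 6 libraries. With FDI-6 it had 708, 670.4 and 631 CPM against 855, 886 and 897 CPM and fell by 0.40 ± 0.06 (adjusted p = 0.000322), a fold change of 1.32, and again passed without any 1 of the 6 libraries. In the single knockdowns its libraries differed widely, with 770.1, 742, 1289 and 537 CPM in siMYBL2 and 1045, 876, 1946 and 650.0 CPM in siControl. Replicate 3 was the highest and replicate 4 the lowest in both groups. The log2 fold change under siMYBL2 was -0.43 ± 0.36 (adjusted p = 0.441) and -0.39 ± 0.05 with the block (adjusted p = 3.67e-05), with all 4 libraries below their control. Under siFOXM1 it was -0.05 ± 0.40 (adjusted p = 0.981) and -0.05 ± 0.03 with the block (adjusted p = 0.293).

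The knockdowns were then compared with each other, since a call in one and not in the other does not show a difference. In the direct comparison of siMYBL2 with siFOXM1, in which siControl takes no part, 2 of 8 members tested passed, against 23.2% of all genes tested. TGFBR2 was higher in siMYBL2 by 0.43 ± 0.10 on the log2 scale (adjusted p = 0.0151), and SMAD2 was lower, at -0.51 ± 0.07 (adjusted p = 0.0011). With the block, all 8 members passed, against 48.9% of all genes. TGFB1, TGFBR1, TGFBR2, SMAD3 and SMAD7 were then higher in siMYBL2, and TGFB2, SMAD2 and TGFBI were lower.

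Between the effects of siBoth and siMYBL2, 0 of 9 members differed by edgeR (0.176% of all genes did), and 1 member, TGFBR2, had an unadjusted p under 0.05. With the block, 2 of 9 differed, against 7.05% of all genes, and both were receptors. The TGFBR2 effect was lower in siBoth, at -0.46 ± 0.18 (adjusted p = 0.556) and -0.45 ± 0.08 with the block (adjusted p = 0.00215). The TGFBR1 effect was also lower, at -0.33 ± 0.29 (adjusted p = 0.866) and -0.31 ± 0.08 with the block (adjusted p = 0.0371). The SMAD2 effects were close, with a difference of 0.02 and a 95% interval from -0.25 to 0.30. siBoth and siMYBL2 came from separate experiments with separate controls, so a difference of treatment and of experiment cannot be told apart.

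FDI-6 and the knockdown of FOXM1 differed in 2 of 9 members, against 20.9% of all genes tested. The INHBA effect was higher with FDI-6 by 4.69 ± 0.71 on the log2 scale (adjusted p = 0.000455). The TGFBR1 effect was higher by 0.68 ± 0.22 (adjusted p = 0.0401), and with upper-quartile scaling this did not pass (0.62, adjusted p = 0.0613). With the block, 6 of 9 differed, against 38.3% of all genes: TGFBR2 and SMAD3 were also higher with FDI-6, and SMAD2 and TGFBI were lower. This block pairs the FDI-6 libraries by number too. Unlike in the knockdowns, same-numbered libraries there did not differ from their group means alike (mean correlation -0.0807), which limits these further calls. The agents, experiments and controls differed, so an effect of the agent and of the experiment cannot be told apart. The 7 A549 and epithelial markers also moved with FDI-6, and all 7 fell, summing to 7480 to 8330 CPM in its libraries and to 12100 to 13000 CPM in its controls, and their part in the values of the members was not tested.

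The rest of the pathway was described by 66 further genes in 5 groups. Under siMYBL2, 61 were tested, 7 rose and 7 fell, against 8.53% and 9.53% of all genes in each direction, and their median log2 fold change was 0.04, with 0.01 over all genes. With upper-quartile scaling 8 rose and 6 fell. Upper-quartile scaling moved the share of higher genes among all that passed from 47.2% to 59.3%. With the block, 19 were higher and 17 lower, or 36 of 61 against 46.7% of all genes.

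Among ligands and proteins of latency and activation, 3 of 14 tested rose and 1 fell under siMYBL2. FURIN, the protease that cleaves the TGF-β precursor, rose by 0.78 ± 0.13 on the log2 scale (adjusted p = 0.00371), and the latency proteins LTBP1 and LTBP3 rose by 0.60 ± 0.06 and 0.58 ± 0.09. THBS1, thrombospondin, which can activate latent TGF-β, fell by 0.64 ± 0.10 (adjusted p = 0.00269). Of 12 inhibitors tested, 3 fell and none rose: PPM1A, a phosphatase of SMAD2 and SMAD3, by 0.67 ± 0.06 (adjusted p = 0.000233), NEDD4L, a ubiquitin ligase, by 0.61 ± 0.11, and SKI, a SMAD corepressor, by 0.43 ± 0.09. The receptors TGFBR3 and ACVRL1 rose, by 0.82 ± 0.24 (adjusted p = 0.0452) and 1.56 ± 0.355 (adjusted p = 0.0169). The TGFBR3 groups overlapped, and ACVRL1 had only 15 to 35 counts per library in siMYBL2 and 6 to 14 in siControl. Among 8 other SMADs and partners, SMAD5 and SMAD6 fell. Of 17 classical induced targets, JUNB (0.60 ± 0.09) and ACTA2 (0.70 ± 0.15) rose and KLF10 fell by 0.35 ± 0.10. The ACTA2 call was lost without siControl replicate 2 (adjusted p = 0.0503). Exons of ACTA2 overlap those of antisense genes over 36.0% of their length, so in every comparison its counts may hold pairs of a partner. The KLF10 call held without siControl replicate 4 and was lost without any other single library (adjusted p up to 0.0877). More genes of each group passed with the block. Of the 17 targets, 9 were then higher and 4 lower, and of the 12 inhibitors 7 were lower and 0 higher. In the ligand group 7 of 14 were higher and 2 lower. Of 10 receptors 3 were higher and 1 lower, and of the 8 other SMADs and partners 3 were lower. Over all genes 46.7% passed with the block.

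Under siFOXM1, 60 of the 66 genes were tested and 0 passed by edgeR, with 5 at an unadjusted p under 0.05. DESeq2 called 2, THBS1 (0.27 ± 0.09) and ACTA2 (0.55 ± 0.18), both higher, with the same limit on ACTA2 as above. With the block, 20 passed, 8 higher and 12 lower, or 20 of 60 against 26.3% of all genes. The lowest adjusted p belonged to COL1A1, a collagen I chain, which was higher (0.65 ± 0.07, adjusted p = 1.52e-08), followed by the cytokine IL11, which was lower (-0.44 ± 0.05, adjusted p = 6.97e-08). Next came the co-receptor TGFBR3, lower at -0.51 ± 0.06 (adjusted p = 4.95e-07), the contractile gene TAGLN, higher at 0.83 ± 0.11 (1.29e-06), THBS1, higher at 0.27 ± 0.04 (1.78e-06), and the ubiquitin ligase SMURF1, lower at -0.31 ± 0.04 (2.2e-06). These 6 were chosen after their values were seen.

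Under siBoth, 59 were tested, 6 rose and 9 fell, against 4.55% and 7.77% of all genes, with a median of -0.10 and of 0.02 over all genes. With upper-quartile scaling 8 rose and 6 fell, and over all genes the share of higher calls moved from 36.9% to 56.3%. With the block, 14 were higher and 22 lower, or 36 of 59 against 34.8% of all genes. The pathway count rested on single libraries: 15 passed with all of them, 6 without siBoth replicate 2, and 9, 8 and 7 without siControl_siBoth replicate 1, 2 and 3. Classical targets held 5 of the 6 that rose, namely PDGFB, a growth factor (1.55 ± 0.25, adjusted p = 0.00742), IL11, a cytokine (0.91 ± 0.12, adjusted p = 0.00284), CDKN1A, a cell cycle inhibitor (0.74 ± 0.19), and the contractile genes ACTA2 (1.12 ± 0.29) and TAGLN (1.05 ± 0.27). Exons of TAGLN overlap other genes over 34.1% of their length on the other strand and 38.1% on the same strand, and the overlap of ACTA2 is given above, so the counts of both may hold pairs of a partner. Of the 17 targets tested, 2 fell, SNAI2 (-1.51 ± 0.27, adjusted p = 0.0122) and TGM2, a crosslinking enzyme (-0.86 ± 0.16, adjusted p = 0.0135). SNAI2 had only 14 to 20 counts per library in siBoth and 43 to 56 in its controls. With the block, 8 of the 17 targets were higher and 6 lower, and of 12 inhibitors 1 was higher and 7 lower. The inhibitors FST, which binds activin, and PPM1A fell by 1.01 ± 0.19 and 0.89 ± 0.08, and the receptors ACVR2B, BMPR1A and BMPR1B fell by 0.36 to 0.44, of which 1 passed with upper-quartile scaling. PDGFB, IL11, PPM1A and SMAD5 passed without any 1 of the 6 libraries. The calls of ACTA2, TAGLN, CDKN1A, ACVR2B, BMPR1B and LTBP1 were lost without 4 or more of the 6 libraries in turn, with adjusted p up to 0.122. The FST call was lost without siControl_siBoth replicate 3 (adjusted p = 0.0565) and the TGM2 call without siBoth replicate 2 (0.0518).

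With FDI-6, 59 were tested, 21 rose and 8 fell, against 21.0% and 17.9% of all genes, with a median of 0.12 and of -0.01 over all genes. Of the 9 receptors and co-receptors tested, 5 rose and none fell, among them TGFBR3, the betaglycan co-receptor (0.66 ± 0.11), ACVR1 (0.63 ± 0.11) and BMPR2 (0.59 ± 0.08). Inhibitors moved both ways. SMURF2, a ubiquitin ligase that SMAD7 brings to the receptor, rose by 1.38 ± 0.07 on the log2 scale (adjusted p = 1.68e-07), from 45.5 ± 2.34 to 119 ± 2.88 CPM (n = 3 each). FST rose by 1.37 ± 0.12 (adjusted p = 6.79e-06), while BAMBI, a decoy receptor, fell by 0.86 ± 0.10 (adjusted p = 5.49e-05) and FSTL3 fell by 0.46 ± 0.10. Of 16 classical targets tested, 6 rose and 2 fell. CCN2, a matricellular protein, rose by 0.91 ± 0.10 (adjusted p = 5.01e-05). COL1A1, the collagen I chain, fell by 1.28 ± 0.18 (adjusted p = 0.000199) and FN1, fibronectin, fell by 0.41 ± 0.08. Among the ligands, GDF15 rose by 0.85 ± 0.13 and INHBB, another activin subunit, fell by 1.01 ± 0.17 (adjusted p = 0.000722). The latency protein LTBP3 and the inhibitory SMAD6 fell by 0.47 ± 0.11 and 0.46 ± 0.11, and TRIM33, a SMAD4 ubiquitin ligase, rose by 0.69 ± 0.08.

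**Figure D4:**
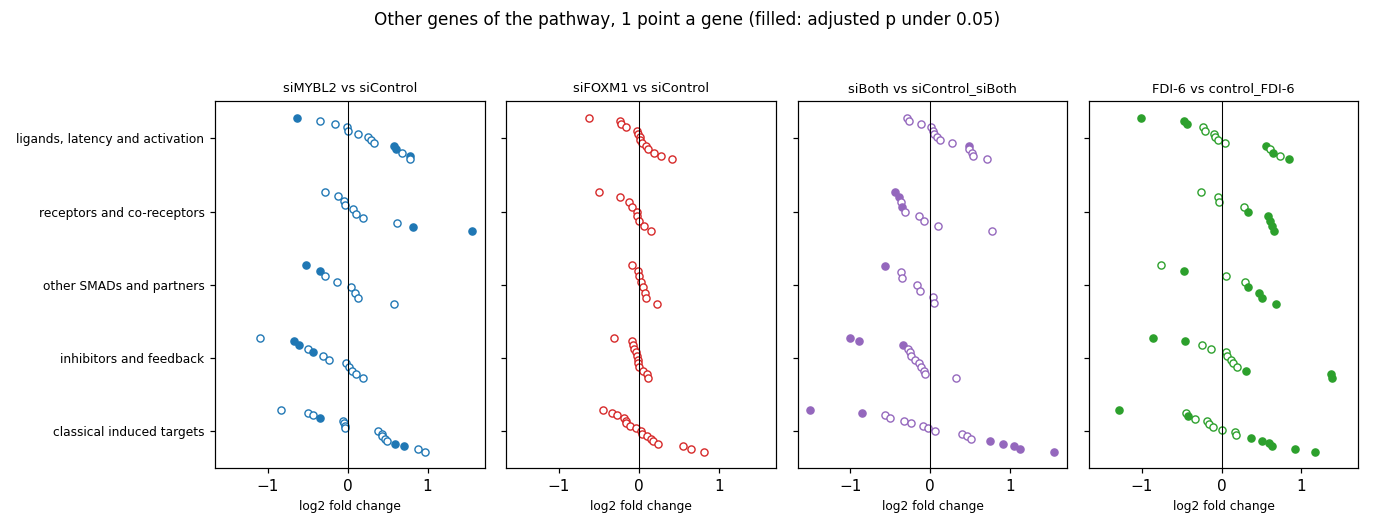
Log2 fold change (x axis, same scale in each panel) of the tested genes of the 66-gene pathway list in 5 groups (y axis), 1 panel for each comparison; filled points have an adjusted p under 0.05 without the block. No point is filled under siFOXM1, and with FDI-6 all filled receptors are to the right of 0.

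Short words in the 3′ UTR were also looked up, because siRNAs are known to lower some transcripts besides their target through short matches there. The words came from an earlier analysis of these same counts, so their link to the fold changes is a description. They were searched on the transcript strand in the 3′ UTR of the canonical GENCODE V44 transcript on hg38. GTGTTTA stood in 65.1% of the 172 genes that fell under siFOXM1 with a 3′ UTR of this kind, against 17.6% of all 13142, and CCTTACA in 18.1% of the 1441 that fell under siMYBL2, against 8.64% of all 13303. The third word, ACGCCCA, stood in 8.95% of these and in 4.61% of all. Genes that fell under siFOXM1 also had longer 3′ UTRs, with a median of 2542 bases against 1339 bases over all. For siMYBL2 these medians were 1547 and 1337 bases. Under siBoth, GTGTTTA stood in 33.7%, CCTTACA in 22.2% and ACGCCCA in 8.42% of the 1187 genes that fell. Over all 13156 genes there, the shares were 17.6%, 8.63% and 4.63%. The medians under siBoth were 2287 bases for the genes that fell and 1343 bases over all. With FDI-6, a compound and not an siRNA, GTGTTTA stood in 30.9% of the 3029 genes that rose and 7.93% of the 2523 that fell. Over all 12763 genes with such a 3′ UTR it stood in 17.7%. CCTTACA stood in 14%, 3.8% and 8.62% of the same sets in turn, and ACGCCCA in 5.71%, 3.41% and 4.7%. Their median 3′ UTRs were 2627, 624 and 1356 bases. The words were not matched to the siRNA sequences, and their part in the values was not tested.

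The sites in members, other than CCTTACA in SMAD3 and GTGTTTA in SMAD2, are given 5′ to 3′ with the word in capitals.
TGFBR1: gtcaatttcatGTGTTTAaaaacatcatg
TGFBR2: taggctttatcGTGTTTActttttcatta
INHBA, first site: ggacattgtatGTGTTTAaattaaaccct
INHBA, second site: tatgttttcatGTGTTTAtagcagaagtt
SMAD2, word 1: tgtgttttgagCCTTACAaccaggaaata
SMAD2, word 2: cacacaccaccACGCCCAactactttttg
TGFB1: ctgttgaagtgCCTTACAttaatgaactc
They lie at chr9:99151184-99151212 on the plus strand (TGFBR1), chr3:30692577-30692605 on the plus strand (TGFBR2), chr7:41685819-41685847 and chr7:41685257-41685285 on the minus strand (INHBA), chr18:47836793-47836821 and chr18:47830422-47830450 on the minus strand (SMAD2) and chr19:41330695-41330723 on the minus strand (TGFB1). TGFBR1, TGFBR2 and INHBA, which hold GTGTTTA, were lower under siFOXM1 with the block, and so was TGFB1, which does not hold it. With FDI-6, TGFBR1, TGFBR2 and INHBA rose, and SMAD2, which also holds GTGTTTA, did not pass. SMAD2 holds all 3 words in a 3′ UTR of 32870 bases and fell under siMYBL2 but not under siFOXM1, where its log2 fold change was 0.03. Whether the SMAD2 transcripts of these cells reach the sites was not tested. TGFB1 holds CCTTACA and had a log2 fold change of -0.01 under siMYBL2, and SMAD3, which also holds it, was higher there with the block. Of the further pathway genes tested, 7 hold CCTTACA (INHBB, ACVR1B, ACVR2B, BMPR1B, USP15, PPM1A and TAGLN). Under siMYBL2, PPM1A fell and the other 6 did not pass, and with the block ACVR1B was also lower and TAGLN was higher. Under siBoth, PPM1A, ACVR2B and BMPR1B fell and TAGLN rose. Of all genes tested, 18.1% passed in either direction under siMYBL2, 46.7% did so with the block, and 12.3% passed under siBoth. GTGTTTA is held by 12 of the further pathway genes tested. Under siFOXM1 with the block, 5 were lower (ITGB6, TGFBR3, ACVR2B, SMURF1 and BHLHE40) and the other 7 did not pass (ITGB8, BMPR1A, BMPR2, SMAD4, USP15, TGIF1 and SNAI2). Of all 15892 genes, 26.3% passed there with the block in either direction, 2232 lower and 1955 higher. ACGCCCA is held by SMAD9 and TGIF2, and neither passed under siMYBL2. Some of these genes were lower and others were not, and the part of the words in their values was not tested.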

How the data were processed

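Per the labels and the methods, reads were trimmed with Trim Galore, STAR placed the pairs on hg38, and HTSeq assigned them to genes of GENCODE V29 (versions and strand setting are not given in the sources used here). The authors deposited raw counts per gene, 1 file for each of the 24 libraries. HTSeq's summary lines (18.47% to 26.17% of each library) were left out. Groups and replicate numbers came from the labels. Identifiers were matched to GENCODE V44 on hg38 (58207 found, 514 not).

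Tests used edgeR 4.0.16 in R 4.3.3, with the libraries of the groups compared only (TMM, filterByExpr, quasi-likelihood, Benjamini-Hochberg over all genes tested), and were tested on simulated data. SE is the log2 fold change divided by the square root of F. Differences between effects were contrasts in 1 fit. The correlation, between libraries of 1 number, of what is left after subtracting the group mean was 0.70 (siMYBL2), 0.754 (siFOXM1), 0.598 (siBoth) and -0.0807 (FDI-6), averaged over the pairs. Each pair was over 0.1 in the knockdowns (lowest 0.537), so the labels' numbers were taken to pair those samples. No library was within sampling noise of another of its group (lowest chi-square per gene 3.57).

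Members and gene lists were chosen with earlier results of these data known. All members are named. Of the 66 pathway genes, up to 6 with the largest rise and up to 6 with the largest fall are named for each comparison, among those that passed, averaged at least 50 counts and had groups that did not overlap. One gene that this rule names is not reported here. Others named (ACVRL1, TGFBR3, ACVR1, BMPR1A, BMPR2, SNAI2, FN1, SMURF1, those named under siFOXM1, those named for a 3′ UTR word, and SMAD6 under siMYBL2) were chosen after their values were seen. Alternatives were DESeq2 1.42.0, scaling by RLE or upper quartile, testing unfiltered genes or those with 10 counts or more in all libraries, the replicate block, a joint fit of the 12 single-knockdown libraries and leaving out each library in turn.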

Additional observations from a re-analysis of the deposited data

Results flagged for a closer look

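Effects on 4 members differed between treatments by a test of the difference itself, by edgeR with adjustment over all genes. TGFBR2 was higher in siMYBL2 than in siFOXM1 by 0.43 on the log2 scale (adjusted p = 0.0151), with a mean of 680.4 ± 59.1 CPM against 505 ± 62.3 CPM (n = 4 each). SMAD2 differed the other way, at -0.51 (adjusted p = 0.0011), with 108 ± 4.33 CPM in siMYBL2 and 153 ± 12.1 CPM in siFOXM1. The effect on TGFBR1 was higher with FDI-6 than with siFOXM1 by 0.68 (adjusted p = 0.0401), and the effect on INHBA was higher by 4.69 (adjusted p = 0.000455). Both of these compare separate experiments, each with its own control. In the 27 groups of 4 libraries tested, no library of a member stood apart from the other 3 by Dixon's 95% value. Groups of 3 libraries were not tested.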

How the results depend on the processing

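With the replicate block, the members that passed numbered 6 under siMYBL2, 5 under siFOXM1, 7 under siBoth, 8 in siMYBL2 against siFOXM1, 2 between the siBoth and siMYBL2 effects and 6 between the FDI-6 and siFOXM1 effects, and the pathway genes numbered 36, 20 and 36 in the 3 knockdowns. The block gained calls in members and lost none, and each member call it changed is given above. Pathway genes numbered 2 by DESeq2 under siFOXM1 and 25 with no filter under siBoth. DESeq2 also called 1 member that edgeR did not, in a comparison other than siFOXM1. With upper-quartile scaling, 1 member differed between the FDI-6 and siFOXM1 effects, and TGFB1 under siMYBL2 turned to 0.046. RLE scaling, a minimum of 10 counts and the joint fit of the single knockdowns changed no member's call or direction, and INHBA was not tested under that minimum with siMYBL2, siFOXM1 or FDI-6.

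Leaving out each library in turn, the members that passed ranged from 1 to 2 under siMYBL2 and from 3 to 6 with FDI-6, and the pathway genes from 6 to 16 under siBoth. Log2 fold changes that turned sign, none of which had passed, ranged under siMYBL2 from -0.10 to 0.046 (TGFB1), -0.11 to 0.22 (TGFBR1) and -0.022 to 0.34 (SMAD3). Under siFOXM1 they ranged from -0.0046 to 0.29 (TGFB2), -0.016 to 0.074 (SMAD2), -0.23 to 0.11 (SMAD3), -0.20 to 0.19 (SMAD7) and -0.42 to 0.36 (TGFBI), and with FDI-6 from -0.20 to 0.00074 (TGFB1) and -0.073 to 0.15 (TGFB2). The cause was not tested.

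INHBA had 2 to 24 counts per library in the single knockdowns and 3 to 6 in the FDI-6 controls, which limits its precision.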
